A study of Rattus norvegicus with 4 samples.

Results

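The genes described here are 10 rat genes of the inflammasome and of pyroptosis: the sensor genes Nlrp3, Nlrc4, Aim2 and Mefv, the adaptor gene Pycard, the protease gene Casp1, the pore gene Gsdmd, the ATP-gated channel gene P2rx7, and Nek7 and Txnip, whose products bind NLRP3. They were chosen by name, with earlier results of these data known. Their probes were found through the RefSeq accession that the array files give for each probe. Probes were matched for 7 of the 10 genes, with 9 probes in all, out of 16581 genes named on the array. No probe was matched to Nlrc4, Aim2 or Gsdmd, and these genes are without a value here. Of the 45598 probes of the array 24489 stayed unnamed, and probes of these 3 genes may be among them.

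The samples were 4 biological replicates of NR8383 cells, an alveolar macrophage line established from rat lung lavage, after 20 passages and 48 h in culture. NRCWE049, a carbon nanotube preparation that carries amino groups, had been added to all 4 at 1.2 cm²/cm² and left for 4 h. The study was designed to set exposed cells against unexposed ones, but unexposed cells were not analysed here. Every value is that of an exposed culture, and no effect of the nanotubes on any gene can be read from it. A cell line cultured alone lacks the other cells of the lung, and in bulk RNA fewer cells expressing a gene and less RNA per cell cannot be told apart.

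An inflammasome is a cytosolic protein complex in which a sensor recruits the adaptor ASC, the product of Pycard, which in turn recruits and activates caspase-1. Caspase-1 matures interleukin-1 beta and interleukin-18 and cuts gasdermin D, whose fragment forms pores in the plasma membrane and leads to the lytic cell death called pyroptosis. In macrophages the NLRP3 sensor responds to potassium efflux, to extracellular ATP acting through the P2X7 channel, and to lysosomes damaged by crystals and fibres. Much of this regulation acts on proteins, which these arrays did not measure.

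Of the 7 measured genes, 5 were detected, that is, well above the local background on 4 of 4 arrays: Nlrp3, Pycard, Casp1, Nek7 and Txnip. Of all named genes 52.5% were detected by the same rule. The share of the measured genes was 71.4%. As these genes were chosen with earlier results of these data known, the shares are set side by side as a description only. On no array were Mefv or P2rx7 well above background. Signals are Agilent's background-corrected processed signals in intensity units, and a level is the log2 signal minus the 75th percentile over the probes detected on all arrays, so that 0 stands for that percentile. Levels follow 1 gene between replicates and are not set against the levels of other genes, because probes differ in how well they bind.

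The sequence around the annotated start is shown for 4 genes, to set a detected pair, the sensor gene Nlrp3 and the protease gene Casp1, beside the undetected pair Mefv and P2rx7. Each window runs from 250 bases before to 50 bases after the start, 5′ to 3′ in the direction of the gene, from RefSeq on the GRCr8 assembly, which held windows for 7 of the 10 genes. Capitals mark matches on either strand to GAGGAA, the core bound by the myeloid factor PU.1, to the kappaB motif GGGNNTTTCC, or to GAAANNGAAA, the paired motif of interferon response elements.
Nlrp3, chr10:44827848-44828147, plus strand: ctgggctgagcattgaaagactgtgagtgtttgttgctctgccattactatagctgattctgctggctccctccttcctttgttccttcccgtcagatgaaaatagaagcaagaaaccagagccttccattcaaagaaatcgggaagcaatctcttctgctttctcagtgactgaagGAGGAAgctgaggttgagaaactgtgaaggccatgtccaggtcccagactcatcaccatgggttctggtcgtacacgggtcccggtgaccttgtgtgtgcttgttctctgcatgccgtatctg
Casp1, chr8:10872580-10872879, plus strand: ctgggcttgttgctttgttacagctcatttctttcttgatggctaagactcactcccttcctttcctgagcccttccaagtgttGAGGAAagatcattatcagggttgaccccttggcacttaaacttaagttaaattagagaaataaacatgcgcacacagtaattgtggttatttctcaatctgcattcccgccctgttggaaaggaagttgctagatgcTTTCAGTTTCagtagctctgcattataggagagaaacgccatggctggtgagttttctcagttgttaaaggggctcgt
Mefv, chr10:12293532-12293831, plus strand: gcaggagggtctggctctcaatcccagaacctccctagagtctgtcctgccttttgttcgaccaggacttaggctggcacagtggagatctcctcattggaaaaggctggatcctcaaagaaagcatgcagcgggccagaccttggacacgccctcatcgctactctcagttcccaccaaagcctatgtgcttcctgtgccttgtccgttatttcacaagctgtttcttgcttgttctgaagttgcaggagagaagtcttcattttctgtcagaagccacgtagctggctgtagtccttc
P2rx7, chr12:39594873-39595172, minus strand: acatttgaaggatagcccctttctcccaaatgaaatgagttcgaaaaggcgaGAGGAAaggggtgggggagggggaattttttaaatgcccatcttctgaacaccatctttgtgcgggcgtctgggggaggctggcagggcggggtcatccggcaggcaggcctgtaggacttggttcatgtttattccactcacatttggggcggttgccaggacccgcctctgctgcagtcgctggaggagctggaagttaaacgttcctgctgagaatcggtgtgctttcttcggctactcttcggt

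The Nlrp3 window held 1 match to GAGGAA, at position -73 from the start. Casp1 had 1 match to GAGGAA, at -166, and 1 to GAAANNGAAA, at -28 on the opposite strand. P2rx7 had 1 match to GAGGAA, at -198, and the Mefv window held no match to any of these motifs. None of the matches overlapped another. Of 33469 windows of rat genes, 27.6% held GAGGAA, 1.53% the kappaB motif and 3.92% GAAANNGAAA. Of the 7 windows held, GAGGAA was in 2 of 4 of detected genes (not in Pycard or Nek7), in 1 of 2 of undetected genes and in that of Aim2, and none of the 7 held the kappaB motif.

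Nlrp3 encodes the sensor best known for its response to particles. The array carried 3 probes for it, and each was well above background on every array. The brightest probe, matched to XM_006246453, had signals of 309.4, 388.3, 398.1 and 487.2 in replicates 1 to 4. Its lowest signal was 60.9 times the 95th percentile of the negative control spots of the same array. On the level scale this probe stood at -2.67, -2.35, -2.65 and -2.30, a mean of -2.49 ± 0.19 (SD, n = 4). Replicates 2 and 4 were thus above replicates 1 and 3, with a ratio of 1.29 between the highest and lowest.

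The other 2 Nlrp3 probes, both matched to NM_001191642, gave signals of 72.5, 94.7, 88.4 and 85.8 and of 59.9, 90.3, 75.2 and 88.1. Their levels were -4.69 ± 0.21 and -4.83 ± 0.28 (SD, n = 4 each). As a gene, Nlrp3 is followed here by its brightest probe, since levels of different probes cannot be compared. Deviations from a probe's own mean can. In replicate 2 all 3 probes were above their means, by 0.14, 0.31 and 0.37 log2 units, though only 2 of the 3 were with median scaling over all probes. In replicates 1 and 3 all 3 were below, at -0.18, -0.07 and -0.21 in replicate 1 and at -0.15, -0.12 and -0.22 in replicate 3. The probes parted in replicate 4, at 0.19, -0.11 and 0.06, though all 3 were above their means with normexp background correction. On the level scale used here the distance between probes in replicate 4, 0.30, was the widest of the 4 replicates. The rank of replicate 4 for Nlrp3 on that scale thus depended on the probe.

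**Figure D1:**
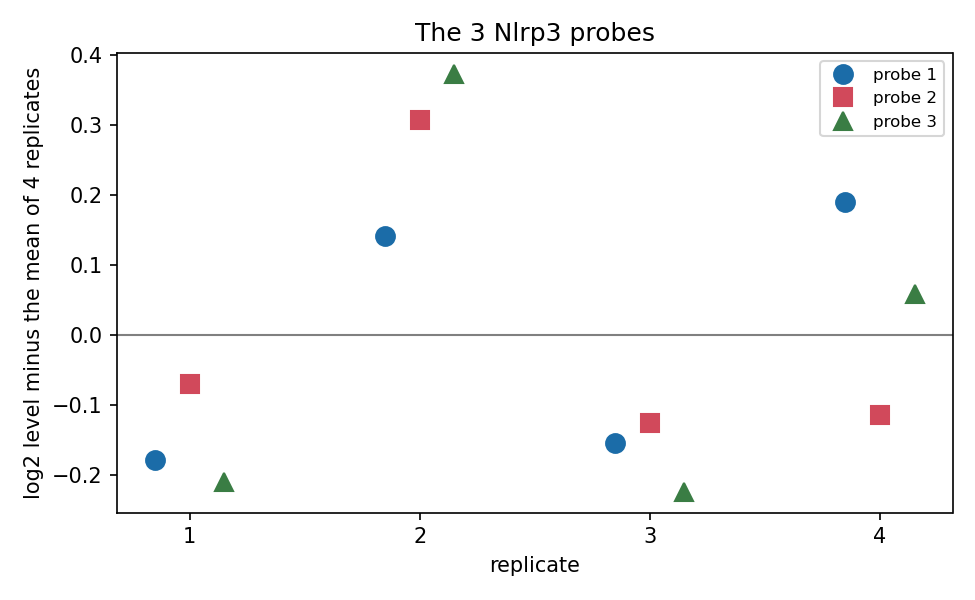
Log2 level of each of the 3 Nlrp3 probes minus its own mean over 4 replicates, by replicate, with probes numbered from the brightest. All 3 probes lie above 0 in replicate 2 and below 0 in replicates 1 and 3, and they fall on both sides of 0 in replicate 4.

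Mefv encodes pyrin, a sensor protein that acts through ASC. Its single probe had signals of 4.42, 4.21, 9.15 and 9.18 in replicates 1 to 4, against a lowest signal of 16.6 to 20.1 among the probes well above background on the same arrays. It carried Agilent's weaker flag for positive and significant signal in replicates 3 and 4 and not in replicates 1 and 2. The signals of replicates 1 and 2 were below the 95th percentile of negative controls, at 5.08 and 5.61. At this brightness no order among the replicates can be read.

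Pycard encodes ASC, the adaptor that assembles into a single large speck in a cell with an active inflammasome. Its probe had signals of 1728, 1123, 1696 and 1525 in replicates 1 to 4. The levels were -0.19, -0.82, -0.56 and -0.66, a mean of -0.55 ± 0.27 (SD, n = 4). Replicate 1 was highest and replicate 2 lowest, at a ratio of 1.55. Agilent's own error of these spots was 10.0% of the signal, as it was for Txnip, and it was 10.1% to 10.2% for Casp1. It was thus not particular to Pycard, and it does not measure the spread between replicates.

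Casp1 encodes the inflammatory protease caspase-1. Its signals were 308.5, 224.0, 414.1 and 409.9, and its levels -2.67, -3.14, -2.59 and -2.55, with a mean of -2.74 ± 0.27 (SD, n = 4). Replicate 2 stood apart below the other 3, and the ratio of the highest to the lowest was 1.51. The 53 detected spots of other probes within 5 rows and columns of the Casp1 spot had a median deviation of -0.06 in replicate 2 from the median of the other arrays, against -0.55 for the Casp1 spot itself. Such a median describes the area of the array and cannot show a defect of the single spot.

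P2rx7 encodes the P2X7 channel, which opens to extracellular ATP and lets potassium leave the cell. Its probe had signals of 3.41, 3.75, 4.15 and 4.10 in replicates 1 to 4, all below the 95th percentile of the negative control spots of their array. None of them carried the weaker flag for positive and significant signal. Agilent's error was 100.3% to 100.5% of the signal in each. It was 100.5% and 100.3% for Mefv in replicates 1 and 2, which also lacked that flag. The error thus adds nothing to the flag. Signals of such spots may stand for a floor in place of a measured value, which was not tested. The transcript was thus not detectable with this probe, which does not show that it was absent. P2rx4, which encodes the related P2X4 channel and was not among the 10 genes, was detected at -3.31 ± 0.20 (SD, n = 4).

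Nek7 encodes a kinase that binds NLRP3 and is needed for its assembly. It was detected close to the limit of the arrays, with signals of 39.0, 43.1, 37.5 and 43.3, at least 1.86 times the lowest signal well above background. Its levels were -5.66, -5.52, -6.05 and -5.79, a mean of -5.76 ± 0.23 (SD, n = 4). Before scaling its signals differed by no more than 1.15-fold, and after scaling by 1.45-fold, because the 75th percentile of the array was at 1970, 1980, 2493 and 2402 in replicates 1 to 4. Agilent's error of the Nek7 spots was 14.2% to 16.4% of the signal, so its unscaled differences lay within the error of the spots.

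Txnip encodes the thioredoxin-interacting protein, which binds thioredoxin and limits glucose uptake, and which has been reported to bind NLRP3 under oxidative stress. Its signals were 451.4, 627.8, 850.5 and 779.7, and its levels -2.13, -1.66, -1.55 and -1.62, with a mean of -1.74 ± 0.26 (SD, n = 4). Replicate 1 stood apart below the other 3, at a ratio of 1.49 between the highest and lowest. The 58 detected spots around the Txnip spot had a median deviation of 0.05 in replicate 1 from the other arrays, against -0.50 for the Txnip spot itself. As for Casp1, this cannot show a defect of the single spot. Txn1, the gene of its partner thioredoxin, was detected at 6.36 ± 0.20 (SD, n = 4). Before scaling, the signals of Txn1 differed by at most 1.05-fold.

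**Figure D2:**
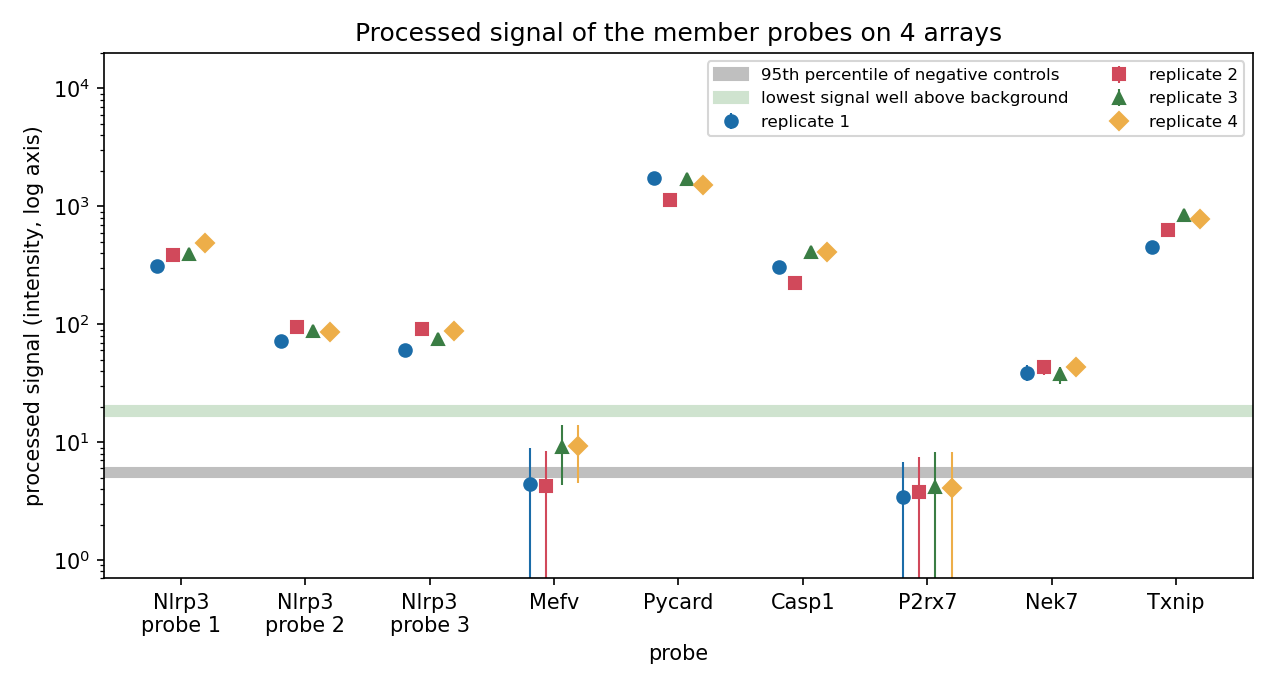
Processed signal of the 9 probes on a log axis, with 1 marker per replicate and bars for Agilent's error of the spot, which run off the lower edge where the error exceeds the signal. The 7 probes of Nlrp3, Pycard, Casp1, Nek7 and Txnip lie above the green band of the lowest signals well above background (16.6 to 20.1), and Mefv and P2rx7 lie below it, around the grey band of the 95th percentile of negative controls (5.08 to 6.01).

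The spread of the 5 detected genes was then set against that of all detected genes. Their SDs ran from 0.19 to 0.27, and each was above the median SD of 0.151 over 8713 detected genes, a comparison chosen after the values were seen. Dimmer genes vary more on these arrays, and at the brightness of each gene the trend fitted over all genes expected an SD of 0.131 for Pycard, 0.153 for Txnip, 0.170 for Nlrp3, 0.176 for Casp1 and 0.257 for Nek7. Pycard was thus 2.03 times its expected SD, Txnip 1.71 times, Casp1 1.56 times and Nlrp3 1.14 times, and Nek7 was at 0.88 of it. Each SD was lower with a certain replicate left out. Without replicate 1 it was 0.05 for Txnip and 0.13 for Pycard, and without replicate 2 it was 0.06 for Casp1. Without replicate 3 it was 0.14 for Nek7, and without replicate 4 it was 0.18 for Nlrp3. These replicates were picked as those that lowered the SD most. Leaving out the most extreme of 4 values lowers an SD in most cases, so the drops single out no replicate. In an F test of each gene's variance around the limma fit against this trend, 0 of the 5 genes were called at an adjusted p of 0.05, and 0 had an unadjusted p under 0.05. The adjusted p-values by limma ran from 0.969 to 0.984. Over all genes the test called 0.0115% (1 of 8713), and 4.30% had an unadjusted p under 0.05. The expected variance and its scatter were fitted to these same genes, so an unadjusted share near the threshold is largely built in. A gene that was not called is thus not shown to be stable. In simulated data for 4 replicates of 8713 genes, the test found 22% of genes with a 5-fold SD, and no smaller excess was simulated. Genes without a raised SD had exactly the trend SD in the simulation. The share found may therefore differ for real genes, which can scatter around the trend.

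**Figure D3:**
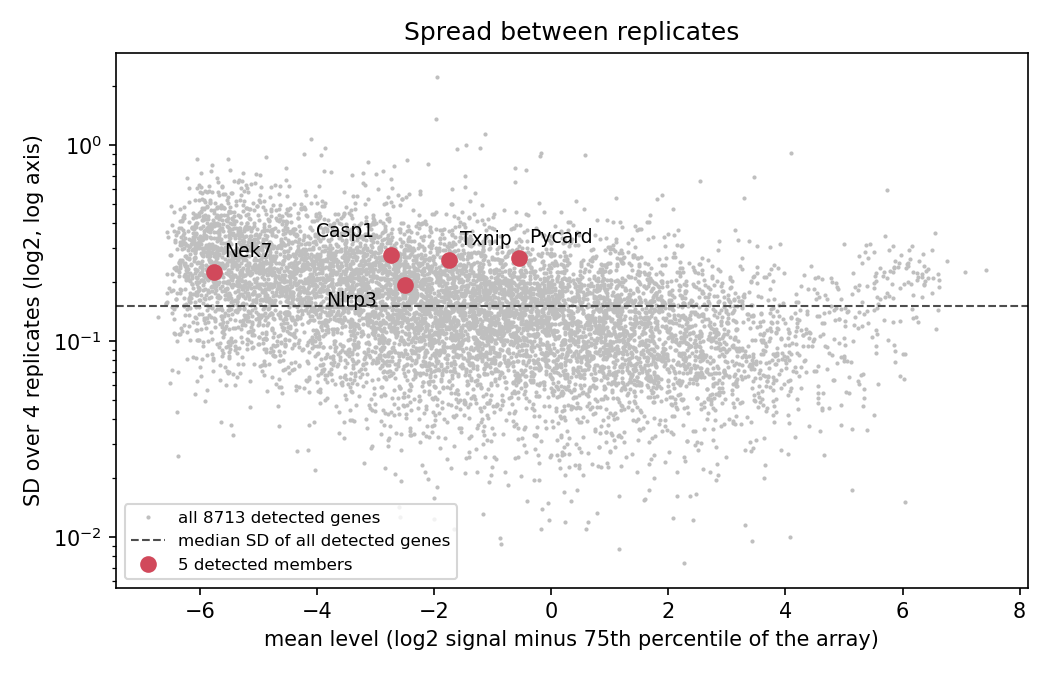
SD over 4 replicates (log axis) against the mean level for 8713 detected genes in grey, with the median SD of 0.151 as a dashed line. The 5 detected inflammasome genes (red) lie above the line, inside the cloud of genes of like brightness.

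Of the 5 genes, 3, 3, 2 and 3 lay above their own mean in replicates 1 to 4, so they did not lie to one side together in any replicate. Their mean deviation was -0.01, -0.04, -0.02 and 0.07 log2 units in replicates 1 to 4, against -0.00017, 0.0013, -0.014 and 0.012 over all detected genes. Replicate 1 was highest for Pycard and lowest for Nlrp3 and Txnip. Replicate 2 was highest for Nek7 and lowest for Pycard and Casp1. Replicate 3 was highest for Txnip and lowest for Nek7, and replicate 4 was highest for Nlrp3 and Casp1 and lowest for none of the 5. The lowest replicate of Pycard, Casp1, Nek7 and Txnip was the same under 4 other scalings and background corrections, while Nlrp3 was lowest in replicate 3 with quantile normalization and with normexp. The highest replicate changed for Nlrp3 with normexp, to replicate 2, and for Casp1 with the 75th percentile over all probes, to replicate 3. With scaling to the median over all probes, most of which were not detected, all 5 genes lay above their means in replicate 4, and the span of the mean deviation was 0.381 in place of 0.113. Without replicate 4 the span was 0.033. The closest pair was Nlrp3 and Nek7, with a root mean square difference of 0.198 between their deviations, and the farthest was Pycard and Txnip, at 0.438. With 4 values per gene these distances are a description only.

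**Figure D4:**
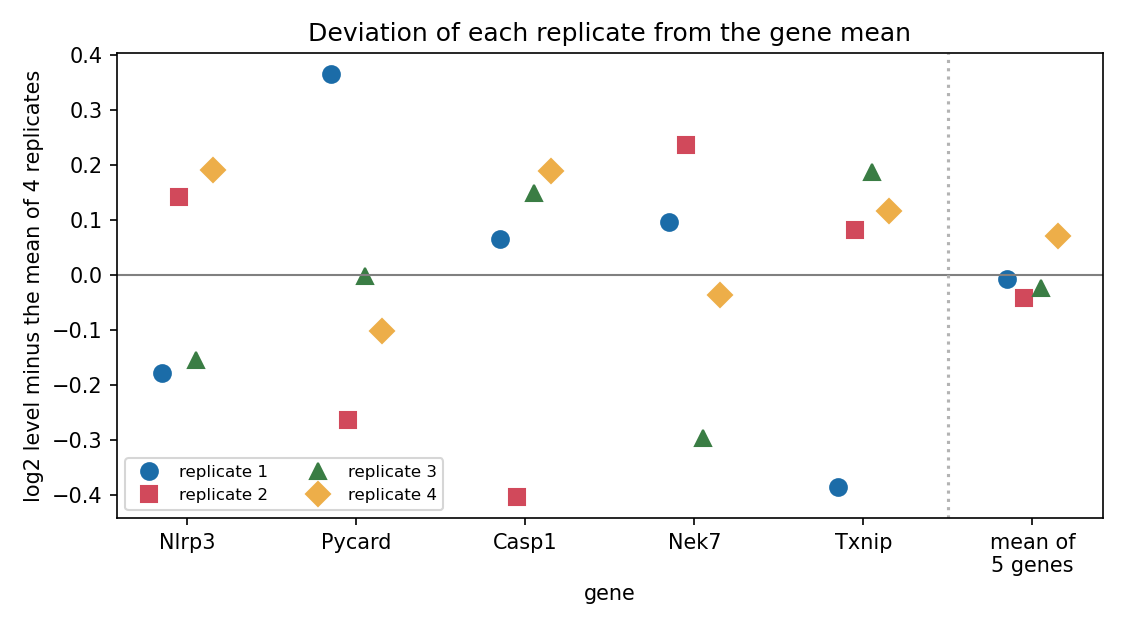
Log2 level of each replicate minus the gene's mean over 4 replicates, for the 5 detected genes and for their mean. Single genes span 0.37 to 0.63 log2 units with a different order of replicates in each, while the mean of the 5 genes spans 0.11.

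The other genes of the pathway were taken from 6 lists with 78 genes, of which 65 were measured. Of these 65, 54 (83.1%) were detected, beside 52.5% of all named genes. The lists were drawn up with earlier results of these data known, so this share is a description only. Only these 54 entered the limma variance test, and 0 of them were variable between replicates at an adjusted p of 0.05. The widest SD among them was that of Tlr2, a receptor gene of the priming list named after its values were seen, with levels of -1.54, 0.17, 0.35 and 0.33 in the order of the replicates (SD 0.91, adjusted p = 0.233 by limma). Of 11 other cytosolic sensors measured, 6 were detected. They included Nlrp1a, which encodes another inflammasome sensor (-5.57 ± 0.14, SD, n = 4). Only 1 of its 2 probes was detected, with signals of 42.9, 37.3, 50.0 and 56.6 in replicates 1 to 4. Nlrp6, Nlrp10, Nlrp12, Zbp1 and Dhx33 were well above background on no array. By the weaker flag for positive and significant signal, Nlrp6 and Dhx33 counted as detected. Dhx33 also did so by the 95th percentile of negative controls. Naip6, a partner of NLRC4 in sensing bacterial proteins, had no matched probe.

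Of 12 measured caspase, gasdermin and cytokine genes, 9 were detected. Gsdma, Gsdmc and Gsdme, the measured gasdermin genes, were the other 3, and Gsdmd had no matched probe. Gsdme had signals of 9.35, 7.46, 6.38 and 23.7 in replicates 1 to 4, each above the 95th percentile of negative controls of its array, and it counted as detected by that rule and by the flag for positive and significant signal. Casp4, the inflammatory caspase gene of the non-canonical pathway, was at -3.86 ± 0.05, and Casp8, an apoptotic caspase gene whose product can also cut gasdermin D, at -2.89 ± 0.33 (SD, n = 4 each). Ninj1, whose product ruptures the plasma membrane after the gasdermin pore has formed, was at 0.85 ± 0.22 (SD, n = 4). Of 11 detected direct partners of the inflammasome genes, 4 were lowest in replicate 2 (Casp8, Ninj1, P2rx4 and Nlrp1a), beside 27.4% of all detected genes. Another 3 partners were highest in it (Il1b, Il18 and Brcc3), and the share of all detected genes highest there was not counted.

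The substrates of caspase-1 were both detected. Il1b had signals of 6114, 6352, 5727 and 5367 in replicates 1 to 4 and a mean level of 1.42 ± 0.28 (SD, n = 4). Il18 had signals of 2444, 2616, 2506 and 2453 and a mean level of 0.19 ± 0.20 (SD, n = 4). On the level scale both were higher in replicates 1 and 2 than in replicates 3 and 4, and the 75th percentile was lower on the arrays of replicates 1 and 2. Unscaled, the signals of Il18 differed by at most 1.07-fold and those of Il1b by at most 1.18-fold.

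Of 10 genes of ion channels and lysosomal rupture, 9 were detected, and the exception was Panx1, a channel gene linked to ATP release. Kcnk6, the gene of a potassium channel upstream of NLRP3, was at -0.62 ± 0.04, and Ctsb, the gene of the lysosomal protease cathepsin B, at 6.02 ± 0.06 (SD, n = 4 each). All 17 measured genes of regulators and partners were detected, among them Brcc3, the gene of a deubiquitinase of NLRP3 (-1.99 ± 0.13, SD, n = 4). Of 8 genes of the priming signal, 7 were detected, and Irak4 was well above background on 3 of 4 arrays. Of 7 genes of the ESCRT machinery, which repairs the membrane around gasdermin pores, 6 were detected and Tsg101 was not.

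**Figure D5:**
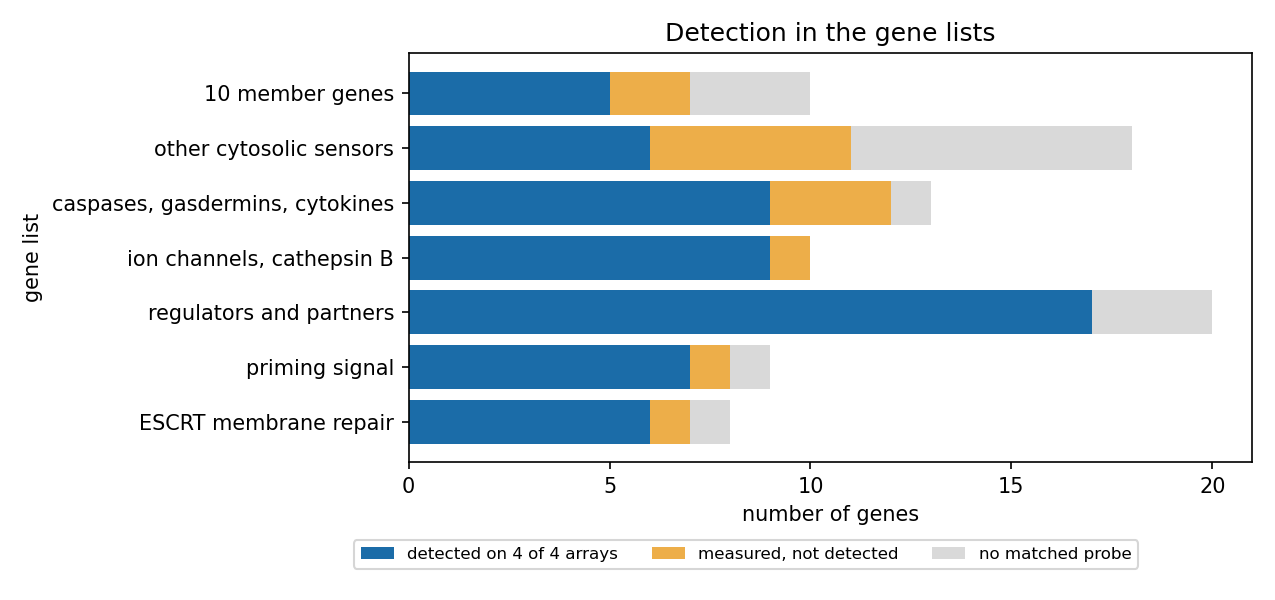
Number of genes detected on 4 of 4 arrays (blue), measured and not detected (orange) and without a matched probe (grey), for the 10 inflammasome genes and 6 pathway lists. Blue makes up 5 of the 10 genes in the top bar, and the list of regulators and partners has no orange part.

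The arrays were close to each other, with correlations of 0.992 to 0.998 between levels across the probes detected on all 4 arrays. On each array 19143 to 19311 of 45598 probes were detected and 0 spots were saturated. Across probes such correlations mostly reflect how far probes differ in level. Of 11 measured macrophage markers, 9 were detected, without Marco and Adgre1, against 5 of 27 measured markers of epithelium, fibroblasts, endothelium, lymphocytes and granulocytes. These 5 were Cdh5, Pecam1, Cd3d, S100a8 and Camp, while the epithelial and fibroblast markers Epcam, Sftpc and Col1a1, named after their values were seen, were well above background on no array. Their part in the values of the inflammasome genes was not tested. The file headers give the same slide for all 4 arrays (1 slide, 1 scan date), which leaves no batch of either kind to test.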

How the data were processed

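Total RNA (RIN above 7.5) was labelled with Cy3 from 100 ng and hybridised to one-colour Agilent rat arrays, per the labels' protocols. The deposited intensity values are background-corrected processed signals from Agilent Feature Extraction 11.0.1.1, per the file headers and the submitters' processing notes, and whether the authors scaled arrays to each other is not stated there. The deposited flags for background and outliers were used as they stand. Each array held 62976 spots, 4259 of them controls, and the number of arrays limits the precision.

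Control spots and outlier spots were left out, replicate spots were averaged as log2 values, and a probe was detected if well above background on 4 of 4 arrays. As 39.3% of probes were detected, the 75th percentile was taken over these. Accessions were matched to RefSeq on GRCr8, which named 21109 of 45598 probes; the file headers give another build, so no probe coordinates are printed. A gene took its brightest detected probe. Variances were tested with limma 3.58.1 in R 4.3.3 (Benjamini-Hochberg), after reading with the package data.table, version 1.17.8. The test was also run on simulated data drawn from the means and the trend SD of the real genes. Plots used matplotlib 3.10.9 and Python 3.11.15. The 10 genes and the lists were chosen with earlier results of these data known. Named are the 10 genes, list members on the minority side of detection if 5 or fewer, and 14 direct partners, of which 11 were detected; other names are marked as chosen after their values were seen. With 1 group, no comparison between conditions was made. Alternatives, whose effects the closing section gives, were other detection rules, scalings, background correction, probe choice, variance models and leaving out each replicate.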

Additional observations from a re-analysis of the deposited data

Results flagged for a closer look

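Of 22 sets of 4 values, 1 had a replicate far from the other 3 by the ratio of gap to range, where chance flags about 1 in 20. It was the second of the Nlrp3 probes (A_44_P281733), with a ratio of 0.8722: replicate 2 was at -4.39, and replicates 1, 3 and 4 at -4.76, -4.82 and -4.81. The brightest Nlrp3 probe (A_44_P1109874) had a ratio of 0.131 and the third (A_44_P1109879) of 0.526. Replicate 2 was above the mean of all 3 probes.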

How the results depend on the processing

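The count of 5 detected inflammasome genes was 5 under all 10 alternatives of detection, outlier flags and left-out replicates, and the count over the 6 pathway lists ran from 47 to 58 of 65 (main value 54). With all probes of a gene required, 4 other sensors were detected in place of 6, and Nlrp1a was among those not detected by that rule. The count of variable inflammasome genes was 0 under all 12 alternatives, with adjusted limma p-values from 0.928 to 0.999 where each gene was followed; such a test of 4 arrays has little power. The count of genes with an SD above the median ran from 4 to 5. The span of the mean deviation over replicates, 0.113, was 0.381 with median scaling over all probes, most of which were not detected, and ran from 0.033 to 0.111 with replicates left out, lowest without replicate 4. Levels shifted beyond their SD for all 5 genes with both scalings over all probes, which change the zero of the scale, for Nek7 with normexp (-4.37, run on the median spot signal), and for Nlrp3 with the mean over its probes. No paired analysis was possible because there is 1 group.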
